A study of Equus caballus with 8 samples.

Results

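Glycosaminoglycan chain synthesis enzymes were followed in equine mesenchymal stem cells from bone marrow (BM-MSCs), cultured with or without transforming growth factor beta 2 (TGF-β2). The members were chosen by gene symbol alone, as the enzymes that start, elongate, epimerize, sulfate or trim these chains and those that make their sugar and sulfate donors. Of the 15266 named genes in the table, 46 were members, and 45 of them passed the filter on low values and were tested. HS3ST5 was the exception and is described below with its reads. Other symbols that the same rule covers, such as CSGALNACT1 and CHST7, were not analysed here.

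Glycosaminoglycans are long, mostly sulfated sugar chains. Chondroitin, dermatan and heparan sulfate are built in the Golgi on serine residues of proteoglycan core proteins. A short linker starting with xylose is made first, and the next sugar added decides whether the chain becomes chondroitin or dermatan sulfate or heparan sulfate. Polymerases then add alternating sugars, and epimerases and sulfotransferases modify them in patterns that set which growth factors and matrix proteins a chain binds. In tendon and its stromal cells, chondroitin and dermatan sulfate chains on small proteoglycans lie along collagen fibrils, and heparan sulfate chains at the cell surface hold growth factors, among them members of the TGF-β family.

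Bulk poly(A) RNA was sequenced from paired cultures of 4 horses, labelled D, J, L and W. Untreated cells grew in low glucose DMEM with serum and antibiotics, and the study's methods add bFGF and glutamine to this medium for both groups. Treated cells grew in the same medium with 1 ng/ml human recombinant TGF-β2, from isolation to the third or the fourth passage per the labels. The study's methods instead give a fixed number of passages with TGF-β2 before sequencing. The donors were healthy adult Thoroughbred or Thoroughbred-cross horses, and each horse gave 1 culture per condition, so the p-values measure the spread between these 4 pairs of cultures. The untreated libraries held 40044240 to 57228675 reads and the treated libraries 39184554 to 46634539. The 6 mesenchymal stromal markers (ITGB1, CD44, THY1, NT5E, ENG and PDGFRB) summed to 161816 to 355467 normalized counts in untreated and 172849 to 271837 in treated cells. Within that sum THY1 was called lower (log2 fold change -2.21, limma adjusted p = 0.00203), PDGFRB (-0.71) and ENG (-0.42) passed lower, ITGB1 passed higher (0.91), and CD44 and NT5E did not pass. The 7 haematopoietic markers in the table summed to 244 to 528 and 181 to 344, so these markers were detected at a low level in every library. Fewer cells of a type and less RNA per cell cannot be told apart in bulk samples. Normalized counts are reads divided by a library scale and not by gene length, so levels are compared between libraries and not between genes.

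In all, 10 members changed past both thresholds of the study, an adjusted p under 0.05 and more than 1 on the log2 scale, and are called changed here. Called higher were 6 of 45 (13.3%), against 6.83% of all 14907 tested genes, and called lower were 4 of 45 (8.89%), against 7.31%. With all libraries scaled to their total reads instead, 6 members were called higher and 7 lower, against 4.68% and 12.3% of all genes tested that way. On adjusted p alone, 12 members (26.7%) passed higher, against 15.7% of all tested genes, and 6 (13.3%) passed lower, against 15.3%. Under total scaling 9 passed higher and 12 lower, against 8.01% and 35.2%, and NDST1, UST and CHST6 no longer passed higher. HS3ST1 reached the filter on low values through its treated libraries alone, and HPSE did so in 4 untreated libraries and 1 treated library. The places of HS3ST1 and HPSE in the counts of this paragraph are therefore no support for those counts. All 18 members that passed moved the same way in each of the 4 horses. The fit with horse as a block favours such members, so this is no separate support for them. The treated and untreated libraries did not overlap in 16 of the 45 members (35.6%), against 27.8% of all tested genes. The median log2 fold change was 0.12 over the 45 members and 0.0055 over all tested genes. Scaling to total reads moved the median of all genes to -0.30 and that of the members to -0.17. The members called higher were the chain starter XYLT1, the chondroitin polymerases CHSY1 and CHSY3, the heparan polymerase EXT1, and the sulfotransferases CHST3 and HS3ST1. Called lower were the heparan polymerization relative EXTL2, the sulfotransferases CHST2 and CHST15, and the heparan-cleaving enzyme HPSE.

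**Figure D1:**
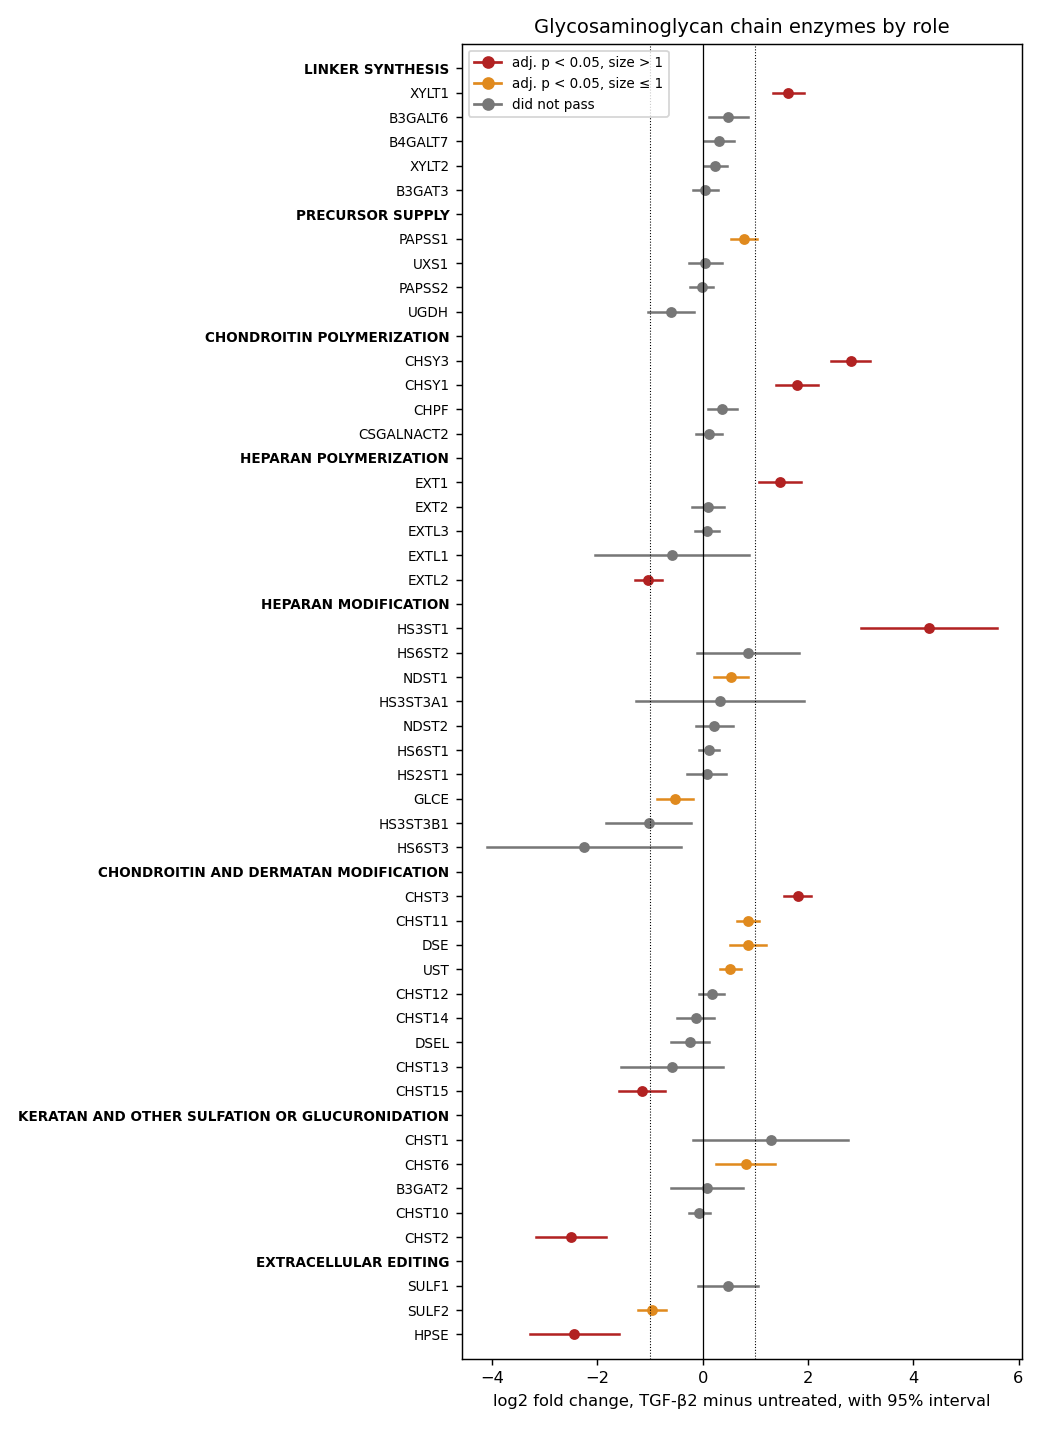
Log2 fold change of the 45 tested enzymes, TGF-β2 minus untreated, with 95% intervals from limma, grouped by role. Red points passed an adjusted p of 0.05 with a size over 1, orange points passed with a smaller size and grey points did not pass. The 6 red points to the right of 1 are XYLT1, CHSY3, CHSY1, EXT1, HS3ST1 and CHST3, and the widest intervals belonged to HS6ST3, HS3ST3A1, EXTL1 and CHST1.

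The linker is a chain of xylose, galactose, galactose and glucuronic acid. XYLT1 and XYLT2 are the xylosyltransferases that attach its first sugar to the core protein. XYLT1 had 1389, 3071, 2791 and 1456 normalized counts in untreated cells of horses D, J, L and W and 5222, 10384, 7137 and 4109 in treated cells. The lowest treated library lay above the highest untreated one. XYLT1 rose 3.08-fold in its mean, from 2177 ± 879 to 6713 ± 2748 (SD, n = 4), with a log2 fold change of 1.63 (SE 0.12, limma adjusted p = 0.00153). The increase within a horse was 1.35 to 1.91 on the log2 scale. XYLT2, by contrast, had 1030.1 to 1433 normalized counts untreated and 1235 to 1738 treated, a log2 fold change of 0.24 with a 95% interval of 0.02 to 0.46, and did not pass (limma adjusted p = 0.0914).

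None of the remaining linker enzymes passed in limma, so XYLT1 was the 1 of 5 that did. B4GALT7 and B3GALT6 add the galactoses, and B3GAT3 adds the glucuronic acid that completes the linker. B3GALT6 had 204 to 277 normalized counts untreated and 292 to 371 treated, without overlap, with a log2 fold change of 0.49 and a limma adjusted p of 0.0560. DESeq2 passed B3GALT6 with and without the horse term (adjusted p of 0.0178 and 0.0131). B4GALT7 also separated the groups, at 976 to 1264 against 1273 to 1409, with a log2 fold change of 0.30 (limma adjusted p = 0.0958), and passed in DESeq2 without the horse term alone (0.0428). B3GAT3 had a log2 fold change of 0.044 (95% interval -0.19 to 0.28).

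Among the 4 enzymes of precursor supply, PAPSS1 passed higher and none was called. PAPSS1 and PAPSS2 make PAPS, the sulfate donor that all Golgi sulfotransferases use. PAPSS1 had 5611, 5245, 8251 and 7006 normalized counts in untreated cells of horses D, J, L and W and 9835, 9722, 11792 and 13435 in treated cells. The groups did not overlap. PAPSS1 rose by 0.79 on the log2 scale (SE 0.10, limma adjusted p = 0.00547), from 6528 ± 1376 to 11196 ± 1769.6 (SD, n = 4), and passed in each of the 16 alternatives. For PAPSS2 the log2 fold change was -0.023, with an interval of -0.24 to 0.20. UGDH makes UDP-glucuronic acid and UXS1 converts it to UDP-xylose, the donor for the first linker sugar. UGDH had 4995, 9775, 5361 and 5172 normalized counts untreated and 5148, 5196, 3327 and 2861 treated in horses D, J, L and W. Its untreated library of horse J was the highest of the 8, by a wide gap. The log2 fold change of UGDH was -0.60 and its limma adjusted p 0.0501, just over the threshold, and DESeq2 with the horse term passed it lower (0.0134). UXS1 stood at 0.049, with an interval of -0.26 to 0.36.

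Both chondroitin synthases in the table rose. CHSY1 and CHSY3 add glucuronic acid and N-acetylgalactosamine in turn to the growing chondroitin chain. CHSY3 had 506, 721, 980.0 and 704 normalized counts in untreated cells of horses D, J, L and W and 5081, 4193, 6655 and 4320.2 in treated cells. Every treated library was above every untreated one, and the lowest treated value was several times the highest untreated value. CHSY3 rose 6.96-fold, from 728 ± 195 to 5062 ± 1132 (SD, n = 4), a log2 fold change of 2.81 (SE 0.15, limma adjusted p = 0.00102). By size of increase it ranked 235 of the 14907 tested genes. CHSY1 had 2453, 2269, 3225 and 2624 normalized counts in untreated cells of horses D, J, L and W and 11009, 9092, 7813 and 8639 in treated cells. CHSY1 also separated the groups in full. The mean of CHSY1 rose 3.46-fold, from 2643 ± 415 to 9138 ± 1355 (SD, n = 4), a log2 fold change of 1.79 (SE 0.16, limma adjusted p = 0.00237). Horse D showed the largest increase of both genes, 3.33 for CHSY3 and 2.17 for CHSY1 on the log2 scale.

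CHPF, a cofactor that the synthases need for long chains, and CSGALNACT2, which adds the first N-acetylgalactosamine and so commits a linker to chondroitin, did not pass. CHPF had 6933 to 13726 normalized counts untreated and 10209 to 14175 treated and was higher in treated cells of 4 of 4 horses, with a log2 fold change of 0.37 (limma adjusted p = 0.0529, and 0.0214 by DESeq2 with the horse term). CSGALNACT2 had a log2 fold change of 0.11 (95% interval -0.13 to 0.36). The median log2 fold change over these 4 chondroitin polymerization genes was 1.08.

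**Figure D2:**
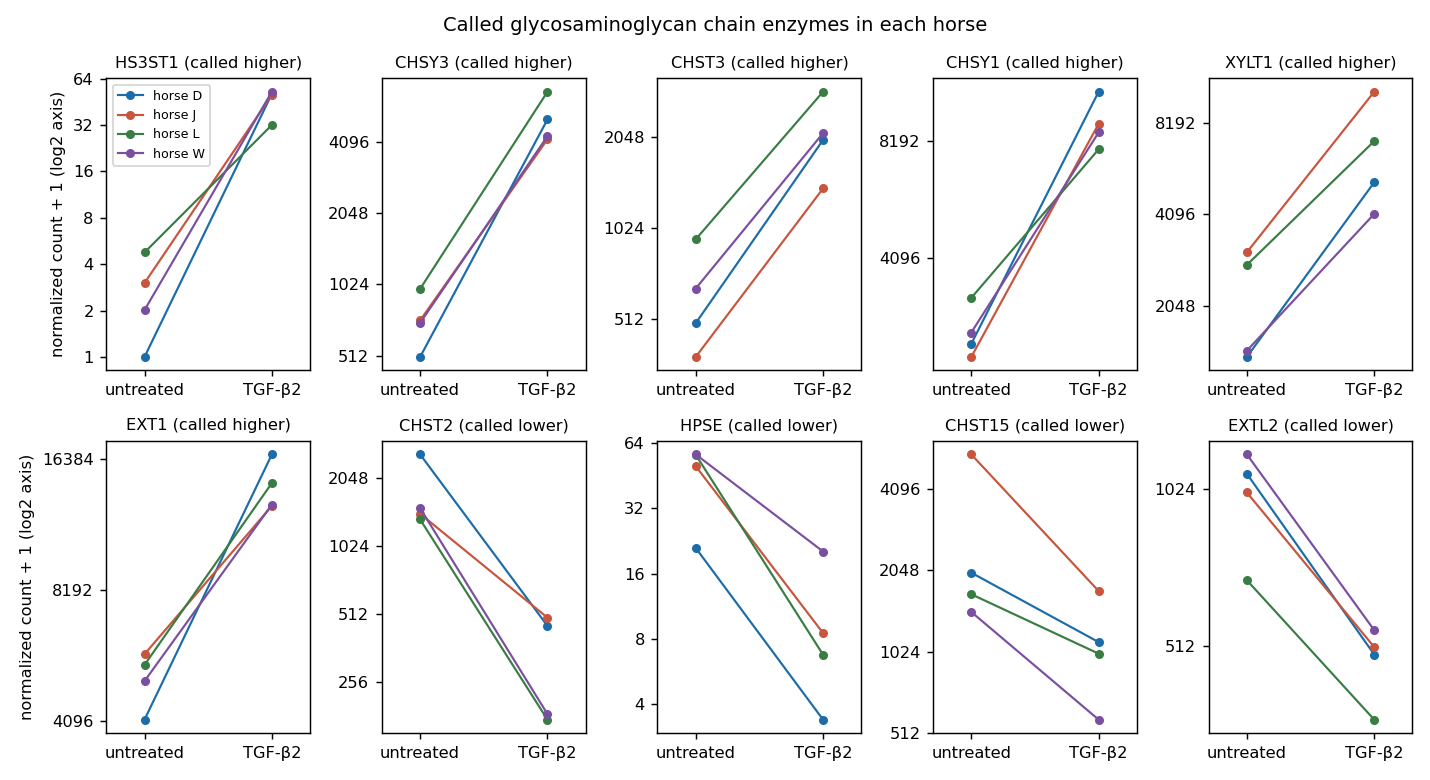
Normalized count + 1 on a log2 axis for the 10 enzymes called changed, with 1 line per horse from untreated to TGF-β2. Each panel has its own range. In each panel all 4 lines run the same way, and the groups overlap only for CHST15, whose untreated value in horse J was 5504.

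Heparan sulfate polymerization was divided. EXT1 and EXT2 together form the polymerase that alternates glucuronic acid and N-acetylglucosamine, and EXTL1, EXTL2 and EXTL3 are their relatives. EXT1 had 4135, 5842, 5522 and 5069 normalized counts in untreated cells of horses D, J, L and W and 16769, 12777, 14416 and 12869 in treated cells. The groups were far apart. EXT1 rose 2.76-fold, from 5142 ± 743 to 14208 ± 1866 (SD, n = 4), a log2 fold change of 1.47 (SE 0.16, limma adjusted p = 0.00372). EXT2, its partner, had 7971 to 10642 normalized counts untreated and 7798 to 10751 treated, with a log2 fold change of 0.096 (95% interval -0.21 to 0.40).

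EXTL2, which can add N-acetylhexosamine to the linker and is known to stop chain growth when the linker xylose is phosphorylated, was lower. EXTL2 had 1093, 1007, 684 and 1190.1 normalized counts in untreated cells of horses D, J, L and W and 493, 509.6, 370.2 and 549 in treated cells. All 4 treated values lay under the lowest untreated value. EXTL2 fell by 1.03 on the log2 scale (SE 0.10, limma adjusted p = 0.00303), its mean going from 993 ± 219 to 480.5 ± 77.2 (SD, n = 4). It was just past the fold threshold and, without horse D, just inside it (-0.99). Its span in the RefSeq annotation overlaps that of SLC30A7, and the strand setting of the counting was not given in the sources used here. EXTL3, which adds the first N-acetylglucosamine of a heparan chain, stood at 0.078 with an interval of -0.15 to 0.31. EXTL1 was low, at 4.71 to 43.6 normalized counts untreated and 6.90 to 22.8 treated, with a wide 95% interval of -2.05 to 0.88.

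Heparan sulfate modification held the tested member with the largest log2 fold change. HS3ST1 makes the 3-O-sulfated sequence in heparan sulfate that antithrombin binds. HS3ST1 had 0, 2.02, 3.77 and 1.01 normalized counts in untreated cells of horses D, J, L and W and 50.03, 49.2, 31.04 and 51.7 in treated cells. These were 0, 3, 4 and 1 reads untreated and 42, 46, 27 and 43 reads treated, so the untreated level was at or near the floor of 3 reads. It passed the filter through its 4 treated libraries alone, so a difference was needed for it to be tested at all, and its values are best read as reads. The fit gave HS3ST1 a log2 fold change of 4.30 on the log2(normalized count + 1) scale (SE 0.52, limma adjusted p = 0.00478), with means going from 1.70 ± 1.61 to 45.5 ± 9.69 (SD, n = 4). The size of this change depends on the pseudocount and the fit, and it lay between 2.92 and 4.89 over the alternatives that tested the gene. The treated level was low too, and no treated library passed 51.7 normalized counts.

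HS3ST5, another heparan 3-O-sulfotransferase, had reads in untreated cells alone. HS3ST5 had 60.9, 4.04, 46.2 and 79.1 normalized counts in untreated cells of horses D, J, L and W and 0, 0, 0 and 0 in treated cells. It had 70, 6, 49 and 78 reads untreated and 0 reads in each of the 4 treated libraries. Against the floor of 3 reads per library, its treated mean was at least 13.7-fold lower than its untreated mean. Only 3 libraries reached 10 normalized counts, so it failed the filter, and with no filter on low values its limma adjusted p was 0.0087 over all genes. A 0 in a library this deep allows up to 3 reads, by counting error only.

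HS6ST3, HS3ST3B1 and HS3ST3A1 varied between horses, and none passed. HS6ST3 had 152, 2.69, 39.6 and 67.98 normalized counts in untreated cells of horses D, J, L and W and 7.15, 3.21, 3.45 and 19.2 in treated cells. Horse J was low in both conditions, and the other three horses were lower when treated. Its log2 fold change was -2.25 with an interval of -4.09 to -0.41 (limma adjusted p = 0.0689), and it was called lower by DESeq2, by edgeR and without horse J. HS3ST3B1 had 4653, 1544, 1853 and 2292 normalized counts in untreated cells of horses D, J, L and W and 1652, 1855, 628 and 927 in treated cells. Again horses D, L and W were lower when treated and horse J was not. HS3ST3B1 had a log2 fold change of -1.02 (limma adjusted p = 0.0631) and was called lower by DESeq2 with horse in the model and without horse J. HS3ST3A1 and HS3ST3B1 share a near-identical catalytic domain, so reads that map uniquely may be split unevenly between them, and the values of both are uncertain. HS3ST3A1 had changes of -1.69, 2.20, -0.17 and 0.96 on the log2 scale in horses D, J, L and W, and these had no common direction. HS6ST2 was near the filter, at 3.48 to 14.1 normalized counts untreated and 12.8 to 18.02 treated, with an interval of -0.11 to 1.84. HS6ST1 had a log2 fold change of 0.12 (95% interval -0.077 to 0.32).

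Of the enzymes that prepare the heparan chain for sulfation, NDST1 passed higher and GLCE passed lower. NDST1 and NDST2 replace acetyl groups on glucosamine with sulfate, the step on which later modification depends. NDST1 had 10951, 6220.3, 11142 and 14176 normalized counts in untreated cells of horses D, J, L and W and 14767, 11677, 16562 and 16568 in treated cells. The groups overlapped, though each horse was higher when treated. NDST1 rose by 0.53 on the log2 scale (limma adjusted p = 0.0306, and 0.155 without the horse term), but by 0.22 with total scaling (0.264) and without a pass when the trend was left out (0.0525). NDST2 had a log2 fold change of 0.22 (limma adjusted p = 0.281). NDST1 overlaps RPS14 in the RefSeq annotation. GLCE epimerizes glucuronic to iduronic acid in heparan sulfate. GLCE had 1269, 1433, 1550.0 and 2650.1 normalized counts in untreated cells of horses D, J, L and W and 977, 1147, 1139 and 1329 in treated cells. Here too the groups overlapped. GLCE fell by 0.53 on the log2 scale (limma adjusted p = 0.0359, and 0.125 without the horse term). NDST1 and GLCE each passed in 1 of the 4 fits that left out a horse, that without horse J. HS2ST1, which sulfates iduronic acid, had a log2 fold change of 0.077 (95% interval -0.29 to 0.45).

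Chondroitin and dermatan sulfate modification had 4 of 9 tested members passing higher and 1 lower, against 15.7% and 15.3% of all tested genes. With total scaling 3 of 8 passed higher (37.5%) and 2 lower (25%), against 8.01% and 35.2% of all genes tested that way. CHST3 sulfates carbon 6 of N-acetylgalactosamine and makes chondroitin 6-sulfate. CHST3 had 494, 382, 939 and 644 normalized counts in untreated cells of horses D, J, L and W and 2007, 1385, 2902 and 2114 in treated cells. The groups did not overlap. CHST3 rose 3.42-fold, from 615 ± 241 to 2102 ± 622 (SD, n = 4), a log2 fold change of 1.80 (SE 0.10, limma adjusted p = 0.00119). The increase was alike in the 4 horses, 1.63 to 2.02 on the log2 scale.

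Of the enzymes that sulfate carbon 4, CHST11 passed. CHST11 had 1326, 2329, 1453 and 1486 normalized counts in untreated cells of horses D, J, L and W and 2229.7, 4068, 2943 and 2733 in treated cells. The untreated library of horse J reached the treated range, and every horse was higher when treated. CHST11 rose by 0.86 on the log2 scale (SE 0.084, limma adjusted p = 0.00297). CHST12, CHST13 and CHST14 act at the same carbon, CHST14 on dermatan sulfate. Their log2 fold changes were 0.17, -0.58 and -0.13, and none passed (limma adjusted p of 0.221, 0.3002 and 0.512).

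DSE and DSEL epimerize glucuronic to iduronic acid and so turn chondroitin into dermatan sulfate, and UST adds sulfate to carbon 2 of the uronic acid. DSE had 13872, 12756, 11563 and 14349 normalized counts in untreated cells of horses D, J, L and W and 23827, 30207, 21601 and 20624 in treated cells. The groups did not overlap. DSE rose by 0.86 on the log2 scale (SE 0.14, limma adjusted p = 0.00956), from 13135 ± 1243 to 24065 ± 4309 (SD, n = 4). DSEL had a log2 fold change of -0.24 (95% interval -0.60 to 0.13). UST had 1889, 1831, 2579 and 2345 normalized counts in untreated cells of horses D, J, L and W and 2923, 2780.3, 3401 and 3245 in treated cells. Treated and untreated libraries of UST did not overlap. UST rose by 0.52 on the log2 scale (SE 0.082, limma adjusted p = 0.00917), and had a log2 fold change of 0.21 with total scaling (0.124). Without horse D the limma adjusted p was 0.0508 for DSE and 0.0566 for UST, and without horse W it was 0.0528 for UST.

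CHST15 adds a second sulfate, at carbon 6, to N-acetylgalactosamine that is already 4-sulfated. CHST15 had 2006, 5504, 1669 and 1435 normalized counts in untreated cells of horses D, J, L and W and 1109, 1715, 1005 and 572 in treated cells. Each horse was lower when treated, but the groups overlapped, and the untreated library of horse J was far above the rest. CHST15 fell by 1.15 on the log2 scale (SE 0.18, limma adjusted p = 0.00896). Without the horse term the limma adjusted p was 0.113, while DESeq2 called it lower with and without that term (8.20e-07 and 0.0346). In limma the call was also lost without horse J (log2 fold change -0.97, limma adjusted p = 0.0073) and without horse W (-1.09, 0.058). In that same untreated library of horse J, PTPRC, which marks leukocytes, had 109.7 normalized counts and CD3E, which marks T cells, 112, while the treated library of this horse had 3.21 and 0. Of the 7 haematopoietic markers, PTPRC, ITGAL and CD3E were highest there among the untreated libraries, and CSF1R was lowest, at 1.35 against up to 147. The part of blood cells in the values of CHST15 was not tested.

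Of the members that act on keratan sulfate and other glycans, CHST2 fell and CHST6 passed higher. CHST2, CHST6 and CHST1 are carbon 6 sulfotransferases, CHST2 and CHST6 of N-acetylglucosamine and CHST1 of galactose, and CHST6 is known for its part in corneal keratan sulfate. CHST2 had 2601, 1419.9, 1341 and 1504 normalized counts in untreated cells of horses D, J, L and W and 453, 492, 174 and 184 in treated cells. No treated value came near the untreated range. CHST2 was 5.27-fold lower in its mean, from 1716 ± 593 to 326 ± 170.5 (SD, n = 4), a log2 fold change of -2.50 (SE 0.27, limma adjusted p = 0.00367). CHST6 had 560.3, 564, 606 and 554 normalized counts in untreated cells of horses D, J, L and W and 1292, 1430.3, 654 and 851 in treated cells. The untreated libraries were close together and the treated ones spread widely, with horse L nearest to its untreated value. CHST6 rose by 0.82 on the log2 scale (limma adjusted p = 0.0430) and passed in 1 of the 4 fits that left out a horse, that without horse L. It did not pass with total scaling (0.51, limma adjusted p = 0.143) or with no trend (0.0642). CHST1 had 2.03 to 75.4 normalized counts untreated and 19.1 to 54.6 treated, with an interval of -0.18 to 2.76. CHST10 and B3GAT2, which act on the HNK-1 epitope of cell surface glycans, had log2 fold changes of -0.064 and 0.081.

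Outside the cell, HPSE and SULF2 were lower and SULF1 did not pass. HPSE is heparanase, which cuts heparan sulfate chains. HPSE had 20.01, 49.1, 55.6 and 55.8 normalized counts in untreated cells of horses D, J, L and W and 2.38, 7.49, 5.75 and 19.2 in treated cells. These were 23, 73, 59 and 55 reads untreated and 2, 7, 5 and 16 treated. The groups were separate by a small gap, from 19.2 to 20.01. HPSE reached 10 normalized counts in 4 untreated libraries and 1 treated library, so it passed the filter through the group where it was high. HPSE fell by 2.44 on the log2 scale (SE 0.34, limma adjusted p = 0.00669), from 45.1 ± 17.03 to 8.71 ± 7.32 (SD, n = 4). Leukocytes also express HPSE, and the haematopoietic marker ITGB2 had 11.3, 71.4, 109 and 58.8 normalized counts untreated and 4.76, 9.64, 51.7 and 28.8 treated in the same order of horses. ITGB2 was called lower (log2 fold change -1.48, limma adjusted p = 0.0347, and 0.256 without the horse term), the 1 such call among 6 tested haematopoietic markers. It passed in 1 of the 4 fits that left out a horse, that without horse J. PTPRC was lower in treated cells of 4 of 4 horses but did not pass (limma adjusted p = 0.112). In horse D it was under the floor in both conditions (1.74 and 1.19 normalized counts). CD3E was at 0 in all 4 treated libraries and also in the untreated libraries of horses D and L. The part of blood cells in the fall of HPSE was not tested.

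SULF1 and SULF2 remove 6-O-sulfates from heparan sulfate at the cell surface. SULF2 had 5328, 8653, 5715 and 7543 normalized counts in untreated cells of horses D, J, L and W and 2240.4, 4563, 3550.0 and 3802 in treated cells. SULF2 did not overlap between groups. It fell by 0.96 on the log2 scale (SE 0.11, limma adjusted p = 0.00420), just under the fold threshold. SULF1 had 27135, 17035, 20420.0 and 26114 normalized counts in untreated cells of horses D, J, L and W and 25268, 18722, 46260.2 and 42555 in treated cells. Horses L and W were higher when treated, and horses D and J differed by -0.10 and 0.14 on the log2 scale. SULF1 had a log2 fold change of 0.48 (95% interval -0.089 to 1.05, limma adjusted p = 0.164).

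Several members form pairs of close relatives, and in 6 of the 8 pairs the difference between relatives had the same sign in every horse. XYLT1 rose more than XYLT2 in 4 of 4 horses, by 1.39 ± 0.35 on the log2 scale (mean difference of the changes, SD, n = 4). EXT1 rose more than EXT2 by 1.37 ± 0.48, and PAPSS1 more than PAPSS2 by 0.81 ± 0.22, each in 4 of 4 horses. DSE minus DSEL came to 1.10 ± 0.59 and SULF1 minus SULF2 to 1.44 ± 0.40, again positive in every horse. CHSY3 rose more than CHSY1 in all 4, the difference CHSY1 minus CHSY3 being -1.02 ± 0.40. NDST1 minus NDST2 was 0.31 ± 0.27 and HS3ST3A1 minus HS3ST3B1 1.35 ± 1.09, positive in 3 of 4 horses each. With 4 horses the exact sign-flip permutation test cannot give a two-sided p under 0.125, which 6 of the 8 pairs reached (0.167 after Benjamini-Hochberg adjustment over the 8), so none could pass. The other two pairs gave an exact p of 0.25.

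**Figure D3:**
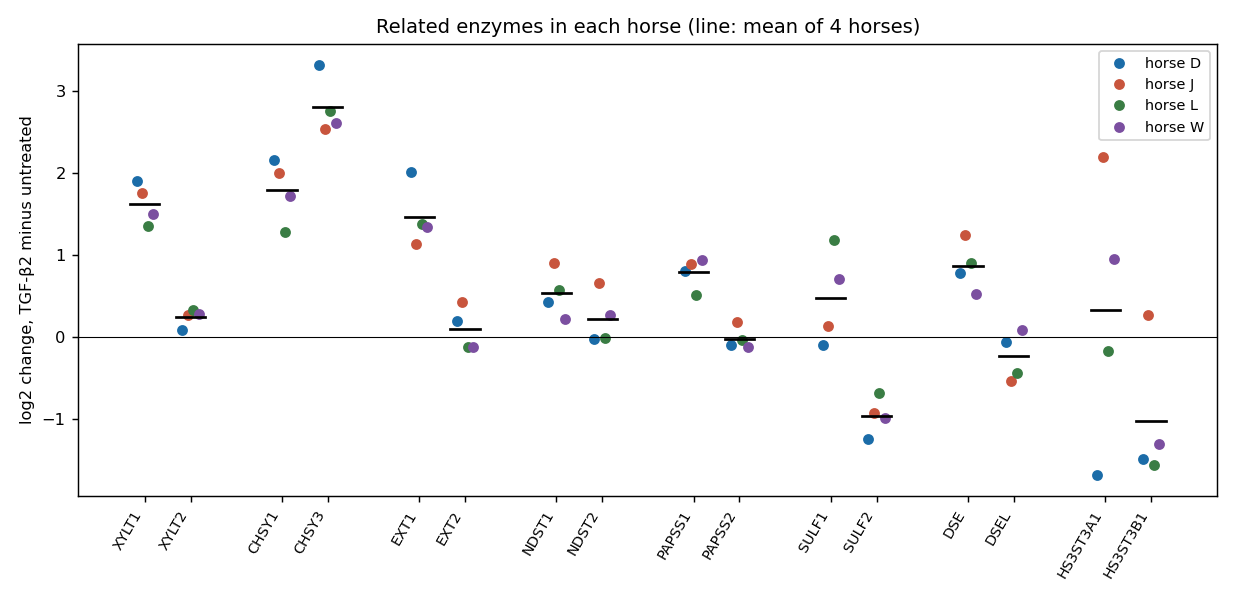
Log2 change from untreated to TGF-β2 in each horse for 8 pairs of related enzymes, 1 point per horse, with the mean of the 4 horses as a line. The pair members do not overlap for XYLT, CHSY, EXT, PAPSS, SULF and DSE, and overlap for NDST and HS3ST3.

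The same changes can be written as shares of a pair's reads, which follow from the values above and are not scaled for gene length. SULF1 held 83.6, 66.3, 78.1 and 77.6% of the reads of SULF1 and SULF2 together in untreated cells of horses D, J, L and W, and 91.9, 80.4, 92.9 and 91.8% in treated cells. EXT1 held 33.3, 42.3, 39.4 and 32.3% of the EXT1 and EXT2 reads untreated and 64.0, 54.3, 64.9 and 56.8% treated. For CHSY3, of CHSY1 and CHSY3, the shares were 17.1, 24.1, 23.3 and 21.2% untreated and 31.6, 31.6, 46.0 and 33.3% treated.

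The 27 tested members that did not pass were not all measured equally well. For 18 of them the 95% interval of the log2 fold change lay within 1 of 0, and for 12 it lay within 0.5. These 12 included XYLT2, B3GAT3, UXS1, PAPSS2, EXT2, EXTL3, HS2ST1, HS6ST1 and CHST12. For the other nine, UGDH, EXTL1, HS6ST2, HS6ST3, HS3ST3A1, HS3ST3B1, CHST13, CHST1 and SULF1, the interval reached past 1 in at least one direction.

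Sugars and sulfate reach the Golgi through other enzymes and transporters, and 16 of these were tested. On adjusted p, 7 passed higher and 3 lower (15.7% and 15.3% of all tested genes), with 2 past the fold threshold in each direction. With total scaling 3 passed higher and 3 lower (18.8% each), against 8.01% and 35.2% of all genes tested that way. GFPT1, which starts the hexosamine pathway, rose by 1.13 on the log2 scale (limma adjusted p = 0.00664), and GNPNAT1, which acetylates its product, by 1.17 (0.00309). PGM3, the next enzyme of that pathway, rose by 0.96 (0.00396). GFPT2, which catalyses the same reaction as GFPT1, fell instead. GFPT2 had 11744, 23644, 6385 and 9835 normalized counts in untreated cells of horses D, J, L and W and 2442, 2825, 1493 and 3262 in treated cells. GFPT2 was lower in each treated library than in any untreated one, with a log2 fold change of -2.25 (SE 0.23, limma adjusted p = 0.00342). SLC35D2, a nucleotide sugar transporter, fell by 1.09 on the log2 scale (limma adjusted p = 0.00495), and UGP2, which makes UDP-glucose, fell by 0.49 (0.0306). The call of GFPT1 was lost on size without horse J (0.96), those of GFPT1 and GNPNAT1 with total scaling (0.82 and 0.86), and UGP2 did not pass without horse D or horse W (limma adjusted p of 0.0986 and 0.129).

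Neither FAM20B, the kinase of the linker xylose, nor PXYLP1, its phosphatase, passed, with log2 fold changes of -0.18 and -0.72 (limma adjusted p of 0.131 and 0.245). Neither had an unadjusted p under 0.05, and DESeq2 and edgeR passed neither, while total scaling passed FAM20B lower (log2 fold change -0.49, limma adjusted p = 0.00849).

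Lysosomal enzymes that take glycosaminoglycans apart had 5 of 15 tested members passing lower and 1 higher, against 15.3% and 15.7% of all tested genes. With total scaling 8 (53.3%) passed lower and 0 higher, against 35.2% and 8.01% of all genes tested that way. NAGLU and SGSH, which break down heparan sulfate, fell by 1.29 and 1.05 on the log2 scale (limma adjusted p of 0.00216 and 0.00302) and were the 2 called lower. IDS, ARSB and the sulfatase activator SUMF1 fell by 0.59, 0.59 and 0.33, and HEXA rose by 0.38 (0.066 with total scaling). Without the horse term 4 passed lower and 0 higher, since IDS and HEXA were lost (limma adjusted p of 0.0911 and 0.0568). IDS, ARSB and SUMF1 did not pass without horse D or without horse W (limma adjusted p of 0.0895 to 0.130), nor did ARSB and SUMF1 without horse L (0.0823 and 0.0621). HEXA did not pass without horse D, L or W (0.0953, 0.0572 and 0.0965), and SGSH fell by 0.97 without horse J.

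**Figure D4:**
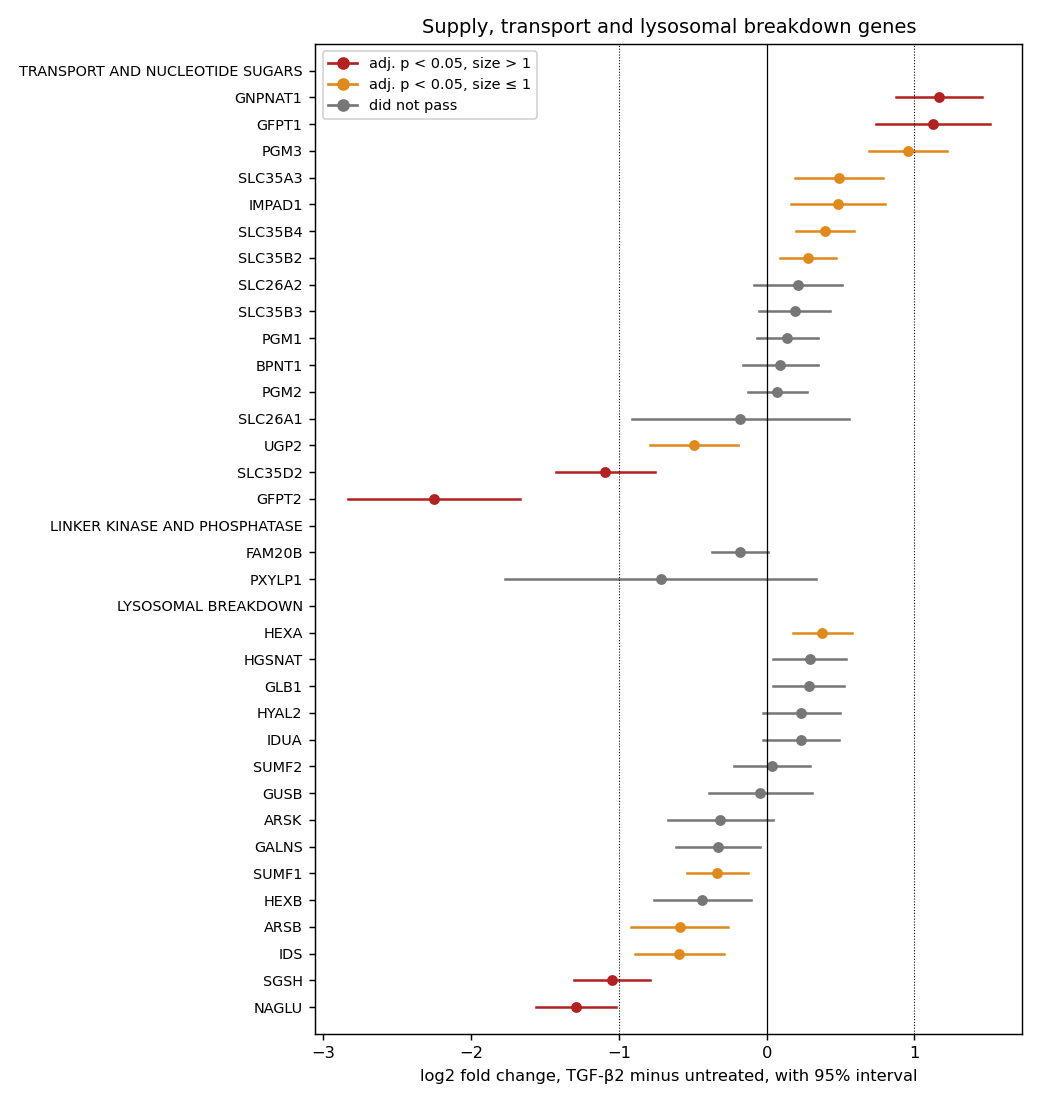
Log2 fold change, TGF-β2 minus untreated, with 95% intervals from limma for genes of sugar and sulfate supply, the linker kinase and phosphatase, and lysosomal breakdown, coloured as in the plot of enzymes by role. GNPNAT1 and GFPT1 lie above 1, and GFPT2, SLC35D2, NAGLU and SGSH lie below -1.

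Core proteins, which carry the chains, changed in both directions. Of 26 tested, 5 were called higher and 7 lower, against 6.83% and 7.31% of all tested genes. Higher were the chondroitin or dermatan sulfate carriers BGN (1.49 on the log2 scale), EPYC (1.86) and CSPG5 (1.45), the heparan sulfate carrier COL18A1 (2.08) and the SPARC relative SMOC2 (5.83). Lower were the heparan sulfate carriers SDC3 (-2.64), SDC4 (-1.997), GPC3 (-7.69) and the TGF-β co-receptor TGFBR3 (-5.50), with LUM (-1.80), PRELP (-2.40) and SRGN (-2.90). SRGN is the proteoglycan of blood cell granules, and its log2 changes in horses D, J, L and W were -4.51, -1.19, -2.67 and -3.21. Those of PTPRC were -0.32, -4.72, -0.82 and -1.74. In horse D both PTPRC values were under the floor of 3 reads (1.74 normalized counts untreated and 1.19 treated). The part of blood cells in the fall of SRGN was not tested. The calls of BGN, EPYC, LUM and PRELP were lost without horse D, those of COL18A1, EPYC, SDC4, SRGN, LUM and PRELP without horse W, and that of LUM without horse L, with limma adjusted p from 0.0517 to 0.105. LUM also did not pass in DESeq2 with the horse term (log2 fold change -1.83, DESeq2 adjusted p = 0.0531). DCN and VCAN, with log2 fold changes of -1.15 and 0.55, did not pass (limma adjusted p of 0.243 and 0.341).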

How the data were processed

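RNA of 8 libraries, untreated and TGF-β2-treated BM-MSCs of 4 horses, was analysed from 1 deposited table. Per the study's methods and processing notes, the authors trimmed reads with Trimmomatic 0.36, aligned them with STAR 2.5.2b to EquCab 3.0, counted unique hits with featureCounts (Subread 1.5.2) and used DESeq2. Annotation version and strand setting are not given in the sources used here. The values deposited by the authors are a signal, counts divided by a size factor per library. Within a relative tolerance of 0.0001, 100% of values were whole multiples of 1 read, so reads were recovered. The row without a gene name (0.0364% of signal) was left out.

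The 14907 genes that reached 10 normalized counts in 4 or more libraries were tested by limma 3.58.1 (trend) on log2(normalized count + 1), with horse as a block and Benjamini-Hochberg adjustment over all of them. Fold changes on this scale understate those of low genes. Called means adjusted p under 0.05 and a log2 fold change over 1 in size. Deviations from the group mean correlated in same-horse libraries at 0.386 to 0.609, and the labels give the horse. The mean between horses was -0.159, which follows from centring each group on its own mean and is not separate evidence of pairing. Alternatives were the fit without the block, other pseudocounts, filters, scalings and thresholds, no trend, DESeq2 1.42.0 and edgeR 4.0.16 on the recovered reads, and leaving out each horse. The statistics were checked on simulated data. The floor for a count of 0 was 3 reads per library, or 2.02 to 3.60 normalized counts, for counting error only.

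The members were taken by a rule on gene symbols, and each is accounted for by its role. Values in every library are given for members that passed, others by range, and HS3ST5, HS6ST3, HS3ST3B1, UGDH, SULF1, GFPT2 and ITGB2 were given in full after their values were seen. The members and lists were chosen with earlier results of these data known. All 46 members matched a symbol in the RefSeq table of another assembly, which was used for names and neighbours only. Of the members, 4 overlap another listed gene there (EXTL2 with SLC30A7, HS2ST1 with SELENOF, NDST1 with RPS14, B3GAT2 with SMAP1). Some genes of the supply and breakdown lists are not reported here. Promoter and protein sequences were not used here. Markers of endothelial cells were CDH5 and KDR, which summed to 7.10 to 26.3 normalized counts untreated and 30.0 to 55.7 treated. KDR had 1.01 to 14.8 normalized counts untreated and 15.5 to 40.7 treated and was called higher (log2 fold change 2.27, limma adjusted p = 0.0109). It reached the filter on low values mainly through its treated libraries. CDH5 did not pass (log2 fold change 0.52, limma adjusted p = 0.264).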

Additional observations from a re-analysis of the deposited data

Results flagged for a closer look

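Dixon's test on the 4 libraries of a group set 9 values apart in 91 groups of members. It was run on normalized counts and not on the log2 scale, and its 5% level is that for normally distributed values. The groups also share the same libraries, so the number of flags cannot be weighed against that level. Of the 9 values, 5 were the untreated library of horse J. It had 5504 normalized counts of CHST15 against 1435 to 2006 in the other untreated libraries, 9775 of UGDH against 4995 to 5361, and 2329 of CHST11 against 1326 to 1486. CHST1 was also high in that library, at 75.4 against 2.03 to 11.3, and B3GAT2 was low, at 20.2 against 45.2 to 49.7. The untreated library of horse D accounted for 3 more, with 148 of HS3ST3A1 against 6.60 to 16.2, 2601 of CHST2 against 1341 to 1504, and 2803 of CHST10 against 3664 to 3773. The last was the treated library of horse L, with 31.0 of HS3ST1 against 49.2 to 51.7. Of the untreated libraries, that of horse J was highest in the leukocyte markers PTPRC, ITGAL and CD3E and lowest in CSF1R, and their part in these values was not tested.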

How the results depend on the processing

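Over the 16 alternatives, 671 of 707 values of single members kept their direction and stayed called or not called as in the main fit. A pass on adjusted p alone was not part of this count. Of the members that passed, NDST1, GLCE and CHST6 passed least often, in 10, 11 and 12 of 17 fits, the main fit included. XYLT1, CHSY1, CHSY3, EXT1, CHST3, HS3ST1, CHST2 and HPSE stayed called in every alternative in which they were tested (HS3ST1 and HPSE failed the filter at 50). The calls of CHST15 and EXTL2 were lost as given above. Without the horse as a block, 6 members were called higher and 3 lower, 11 passed higher and 4 lower, and 1709 of all genes were called instead of 2108. Among members, leaving the block out of limma changed only the call of CHST15 and the passes of NDST1, GLCE and CHST15. Leaving it out of DESeq2 kept the call of CHST15, took that of HS3ST3B1 (adjusted p 0.00847 to 0.0660) and changed the passes of NDST1, GLCE, UGDH, CHPF and B4GALT7. Scaling to total reads gave 7 members called lower, 12 passing lower and 9 passing higher, and it shifts the median of all genes to -0.30. At an adjusted p of 0.01, 1116 of all genes were called, and with no fold threshold 4610, with 12 members higher. Leaving out 1 horse gave 1085 (without W) to 2486 (without J) genes called, 1176 without D, and 3 to 6 members called lower.

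Scaling to total reads gave 12 members that had not passed a negative sign: NDST2 (-0.088), CSGALNACT2 (-0.20), EXTL3 (-0.23), HS2ST1 (-0.23), XYLT2 (-0.074), EXT2 (-0.22), B3GAT3 (-0.27), CHST12 (-0.14), B4GALT7 (-0.0085), UXS1 (-0.26), HS6ST1 (-0.19) and B3GAT2 (-0.22). Relative to the median of all genes none changed sign. That median moves with the scaling, so taking it off nearly returns the main fit and is no separate support. Leaving out 1 horse changed the sign of PAPSS2 (-0.090 to 0.011), HS2ST1 (-0.076 to 0.19), HS3ST3A1 (-0.30 to 1.00), EXT2 (-0.016 to 0.17), UXS1 (-0.087 to 0.11) and B3GAT2 (-0.16 to 0.23), and DESeq2 without the block gave HS3ST3A1 -0.50. With 4 horses and 1 culture per condition, changes as in the wide intervals of the low members could not be resolved.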
